A study of Mus musculus with 13 samples.

Results

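The genes described here encode 9 enzymes and cofactors that add, copy or remove cytosine methylation: Dnmt1, Uhrf1, Dnmt3a, Dnmt3b, Dnmt3l, Tet1, Tet2, Tet3 and Tdg. They were chosen by symbol from an RNA-seq table of 25965 genes and each was found on 1 row. All 9 passed the filter on low values, an average over days 4 to 7 of 0 or more on the log2 CPM scale (CPM being reads scaled to a common library size), which kept 13406 genes for testing. The cells were female mouse embryonic stem cells (mESCs) from FVB/NJ dams crossed with CAST/EiJ sires. The 13 libraries comprised 1 from undifferentiated cells in 2i medium (Day0) and, on each of days 4, 5, 6 and 7, 1 with a nonsilencing control hairpin (Nons), 1 with the hairpin Smarcc1.6 and 1 with the hairpin Smarcc1.7. Cells of days 4 to 7, Nons included, had been weaned from 2i into serum medium without a directing factor, transduced with the hairpin virus on day 2 and put under puromycin on day 3. Smarcc1 encodes part of the core of the BAF chromatin remodelling complex. The paper used these libraries to follow silencing of the X chromosome. Here the RNA of the 9 genes was compared with and without Smarcc1 depletion. Because each group had 1 library per day, the 4 days served as replicates. The labels do not say whether the days came from separate cultures, and the p-values measure the spread of these libraries around a common effect over days.

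Cytosine methylation at CpG sites is placed on unmethylated DNA by the de novo enzymes DNMT3A and DNMT3B, aided by the catalytically inactive cofactor DNMT3L, and is copied after replication by DNMT1, which UHRF1 recruits to hemimethylated sites. The TET dioxygenases oxidise 5-methylcytosine, and the glycosylase TDG excises the most oxidised forms so that base excision repair can restore an unmodified cytosine. Naive mESCs in 2i are known for low DNA methylation, and de novo methylation proceeds as they leave that state. Only RNA was measured here, so nothing below is a measure of DNA methylation or of protein. In separate libraries the paper saw no change of CpG methylation on the X chromosomes after Smarcc1 depletion.

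Depth ran from 13993440 to 63548079 mapped reads, and the 9 genes had between 109 and 72050 reads in a library. Day0 and the 3 libraries of day 6 stood apart, with 85.3% to 86.5% of mapped reads falling in genes where the remaining 9 had 91.6% to 92.6%, so differences were taken within day wherever possible. Near-identical copies that may share reads were found for 3 of the genes. Tdg aligned to the processed pseudogene Tdg-ps at 98.7% identity over 2968 bases and to Gm9855 at 99.2% over 1194 bases, and shared 367 bases with Glt8d2, Uhrf1 to the processed pseudogene Gm5648 at 98.3% over 1590 bases, and Dnmt3b to the gene Dnmt3c at 93.9% over 1434 bases. Antisense transcripts are annotated within Dnmt3a and over the start of Dnmt3b, and whether the counting used strand is not given in the sources used here. In these bulk libraries fewer cells of a type and less RNA per cell cannot be told apart.

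The hairpins are shown because every comparison below rests on them. Each yields a guide of 22 bases whose reverse complement lies in a coding exon of Smarcc1 on the plus strand of chromosome 9 (mm10), in 4 of the 6 protein-coding transcripts of GENCODE M21 and in no other annotated gene. The guides are given 5′ to 3′ as DNA, with the seed (bases 2 to 8) in capitals. The target of Smarcc1.6 is at chr9:110177472-110177493 and that of Smarcc1.7 at chr9:110173911-110173932.
Smarcc1.6 guide: tGTAACTGcttcttcatcctgc
Smarcc1.7 guide: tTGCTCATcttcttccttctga

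Smarcc1 RNA was lower than in the same-day Nons library in all 8 knockdown libraries. The Smarcc1.6 libraries differed from Nons by -1.19 ± 0.48 (SD, n = 4) on the log2 scale. Those of Smarcc1.7 differed by -0.93 ± 0.37 (SD, n = 4), and over both hairpins the level was 48.0% of Nons. The gap narrowed from a mean of -1.41 on day 4 to -0.50 on day 7. Between those days the Smarcc1 level fell from 9.10 to 7.89 log2 CPM in Nons. It went from 7.42 to 7.28 with Smarcc1.6 and from 7.96 to 7.51 with Smarcc1.7.

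The promoters of the 3 de novo genes and Tet2 are shown next, together with that of the germline gene Dazl, because the CpG sites that these enzymes act on differ widely between them. RefSeq windows of 300 bases (250 before and 50 after a transcription start, GRCm38.p6) were found for all 9 genes, 16 windows in all. CpG sites, the letters CG, which read the same on both strands, are in capitals. The windows of the 9 genes held 2 to 57 CpG sites with a median of 20, against a median of 7.00 over 32841 windows of the same length. The Tet2 window at chr3:133544341-133544640 (minus strand) held 57, a number reached by 0.152% of all windows. The Dnmt3b window at chr2:153649199-153649498 (plus strand) held 30, reached by 11.7%. For Dnmt3a the window of the downstream start, chr12:3891494-3891793 (plus strand), is given, with 18 sites (29.7% of windows hold as many), while the windows of its upstream starts held 46 and 47 (1.65% and 1.44%), and the table did not separate transcripts from these starts. The Dnmt3l window at chr10:78042037-78042336 (plus strand) held 6, a number that 56.4% of all windows reach. Its windows at chr10:78049592-78049891 and chr10:78055085-78055384 held 4 and 3 (68.6% and 76.7%), and transcripts from these starts were not separated either. The window of Dazl, an RNA-binding protein gene of germ cells whose levels are given further on, lies at chr17:50293571-50293870 (minus strand) and held 28 (14.2%).
Tet2: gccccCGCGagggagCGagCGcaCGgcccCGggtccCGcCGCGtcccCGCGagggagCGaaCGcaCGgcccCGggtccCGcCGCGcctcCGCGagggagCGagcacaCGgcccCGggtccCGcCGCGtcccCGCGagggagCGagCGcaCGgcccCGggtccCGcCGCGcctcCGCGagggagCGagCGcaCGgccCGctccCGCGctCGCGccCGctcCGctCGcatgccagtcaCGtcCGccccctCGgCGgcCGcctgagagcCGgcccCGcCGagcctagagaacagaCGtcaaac
Dnmt3b: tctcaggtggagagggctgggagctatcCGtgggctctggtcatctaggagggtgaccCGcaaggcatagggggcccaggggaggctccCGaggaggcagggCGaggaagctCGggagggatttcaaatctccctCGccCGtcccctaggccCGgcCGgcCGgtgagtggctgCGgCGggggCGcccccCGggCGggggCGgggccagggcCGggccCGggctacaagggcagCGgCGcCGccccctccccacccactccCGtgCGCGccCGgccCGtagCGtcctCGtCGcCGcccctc
Dnmt3a: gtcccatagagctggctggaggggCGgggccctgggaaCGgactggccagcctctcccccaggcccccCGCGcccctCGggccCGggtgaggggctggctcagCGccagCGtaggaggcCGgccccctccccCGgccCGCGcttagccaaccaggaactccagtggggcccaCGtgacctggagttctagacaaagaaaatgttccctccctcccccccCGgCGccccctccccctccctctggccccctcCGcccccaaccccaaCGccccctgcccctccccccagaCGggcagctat
Dnmt3l: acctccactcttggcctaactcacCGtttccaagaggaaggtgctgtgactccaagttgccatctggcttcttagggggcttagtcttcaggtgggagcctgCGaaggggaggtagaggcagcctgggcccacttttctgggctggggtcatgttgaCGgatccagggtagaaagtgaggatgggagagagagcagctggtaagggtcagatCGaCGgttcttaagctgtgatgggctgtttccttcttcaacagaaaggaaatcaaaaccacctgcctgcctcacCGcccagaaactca
Dazl: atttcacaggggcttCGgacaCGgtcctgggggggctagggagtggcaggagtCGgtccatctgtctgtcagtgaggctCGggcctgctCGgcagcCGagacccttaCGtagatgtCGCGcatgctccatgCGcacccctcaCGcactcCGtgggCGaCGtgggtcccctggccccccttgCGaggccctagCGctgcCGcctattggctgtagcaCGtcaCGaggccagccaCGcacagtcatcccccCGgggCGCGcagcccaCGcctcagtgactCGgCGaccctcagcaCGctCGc

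The 2 maintenance genes started high and fell in every group. Dnmt1 (chromosome 9, 20907206 to 20959888) measured 8.57 log2 CPM at Day0. From day 4 to day 7 the Nons libraries read 8.76, 8.50, 8.13 and 7.83, those of Smarcc1.6 read 8.68, 8.43, 8.09 and 7.76, and those of Smarcc1.7 read 8.66, 8.41, 7.81 and 7.81. The groups overlapped over days, and within a day the knockdown libraries lay just below Nons in all 8 pairs. Uhrf1 (chromosome 17, 56303321 to 56323486) measured 9.18 log2 CPM at Day0. Over the same days it read 9.67, 8.63, 7.71 and 7.75 in Nons, 9.50, 8.98, 7.84 and 7.82 with Smarcc1.6, and 9.55, 8.88, 7.64 and 7.81 with Smarcc1.7. Most of its fall was between days 4 and 6, and days 6 and 7 differed by less than 0.2 in each group.

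The de novo genes were low at Day0, high on day 4 and lower again by day 7. Dnmt3a (chromosome 12, 3806007 to 3914443) measured 7.23 log2 CPM at Day0 and 9.55, 8.69, 7.79 and 6.40 in Nons on days 4 to 7. The Smarcc1.6 series read 9.24, 9.58, 9.35 and 7.24 and the Smarcc1.7 series 9.40, 9.41, 9.06 and 7.07. Both hairpin series thus stayed within 0.4 of their day 4 level until day 6, when Nons had already lost more than 1 log2 unit, and all 3 groups dropped by day 7. Dnmt3b (chromosome 2, 153649450 to 153687730) measured 6.75 log2 CPM at Day0 and 10.09, 10.14, 9.59 and 8.38 in Nons. The Smarcc1.6 series read 9.62, 10.27, 10.38 and 8.93 and the Smarcc1.7 series 9.68, 10.39, 10.28 and 8.48. Dnmt3l (chromosome 10, 78041947 to 78063622) measured 4.70 log2 CPM at Day0 and 10.24, 9.07, 7.19 and 5.21 in Nons. The Smarcc1.6 series read 10.06, 9.72, 8.68 and 7.25 and the Smarcc1.7 series 10.05, 9.49, 8.40 and 7.20. By day 7 the Nons library was close to the Day0 level of Dnmt3l while both knockdown libraries were still above it by more than 2 log2 units.

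The TET genes did not share a course. Tet1 (chromosome 10, 62804570 to 62899118) measured 8.43 log2 CPM at Day0, 8.62, 8.09, 7.23 and 6.10 in Nons, 8.95, 8.35, 7.77 and 6.33 with Smarcc1.6, and 8.93, 8.24, 7.49 and 6.44 with Smarcc1.7. It fell day by day in each group, and both knockdown libraries were above Nons on each day. Tet2 (chromosome 3, 133463679 to 133544390) measured 7.44 log2 CPM at Day0 and 5.18, 3.58, 3.13 and 3.08 in Nons. The Smarcc1.6 series read 6.72, 5.16, 3.95 and 3.03 and the Smarcc1.7 series 6.29, 4.45, 3.57 and 3.31, so that the knockdown libraries of days 4 to 6 lay between Day0 and Nons, and the groups met on day 7. Tet3 (chromosome 6, 83362373 to 83441678) measured 4.06 log2 CPM at Day0, 4.56, 4.41, 4.67 and 4.61 in Nons, 4.35, 4.86, 5.30 and 4.84 with Smarcc1.6, and 4.48, 4.73, 4.86 and 4.97 with Smarcc1.7. It moved least over days, with an SD of 0.11 over the 4 Nons libraries against 0.98 for Tet2 and 1.10 for Tet1.

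Tdg (chromosome 10, 82629828 to 82650799) was low at Day0 and on day 6 in every group. Its log2 CPM was 2.29 at Day0 and 3.35, 3.15 and 3.24 on day 6 in Nons, Smarcc1.6 and Smarcc1.7, against 6.36, 6.58 and 6.08 in Nons, 5.72, 6.04 and 5.99 with Smarcc1.6, and 5.88, 6.42 and 5.89 with Smarcc1.7 on days 4, 5 and 7. These 4 low libraries are those with the lower share of reads in genes. The row at the position of Tdg-ps (Gm5806, chromosome 15, 82516311 to 82519278) had a log2 CPM of 2.19 to 3.53 and was not higher in them. The levels of Tdg across days were therefore left uninterpreted, and its same-day differences were kept.

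**Figure D1:**
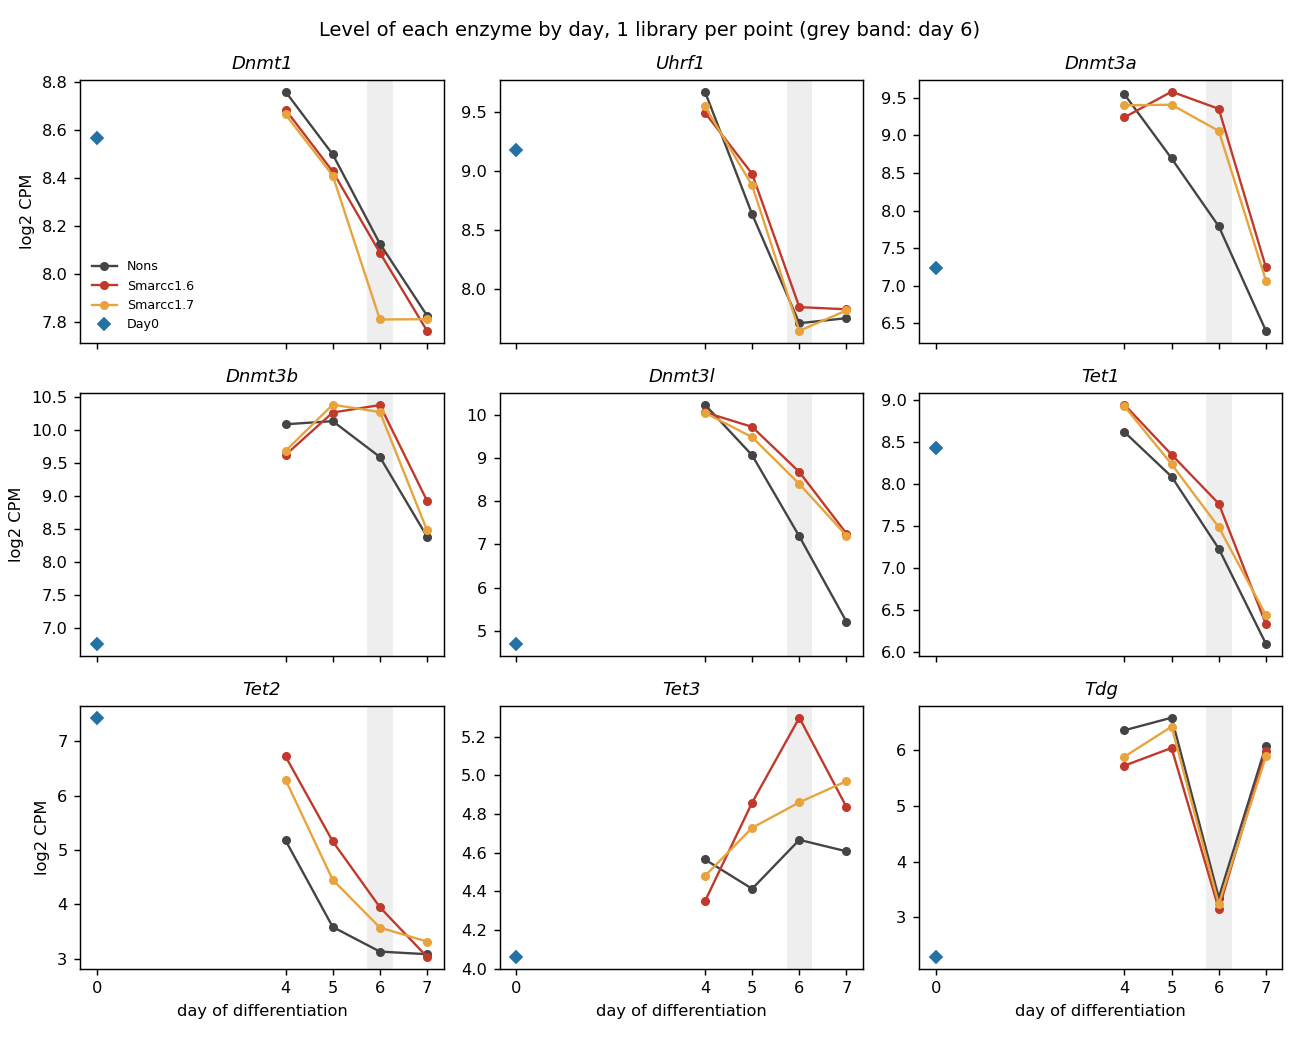
Level of each gene as log2 CPM (vertical axis, its own range in each panel) against day of differentiation (horizontal axis), with 1 library per point; grey circles are Nons, red Smarcc1.6, orange Smarcc1.7, the blue diamond Day0, and the grey band marks day 6. Dnmt3a, Dnmt3b and Dnmt3l are below Nons on day 4 and above it on days 5 to 7 with both hairpins, Tet1 is above Nons throughout, and Tdg drops on day 6 in all 3 groups.

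Levels were compared between genes per kb of exon (union of GENCODE M21 exons). At Day0 the order began with Uhrf1 at 7.09 log2 CPM per kb, Dnmt1 at 5.68, Tet1 at 4.48 and Dnmt3b at 4.40, and ended with Tet3 and Tdg. In Nons on day 4 the order began with Dnmt3l at 8.66, Dnmt3b at 7.74 and Uhrf1 at 7.58, and by day 7 with Dnmt3b at 6.03, Uhrf1 at 5.66 and Dnmt1 at 4.94. Over the 4 Nons libraries the order was Dnmt3b, Uhrf1, Dnmt3l, Dnmt1, Dnmt3a, Tet1, Tdg, Tet3 and Tet2, with means from 7.20 ± 0.82 to -0.33 ± 0.98 log2 CPM per kb (SD, n = 4). Neighbours in that order differed by less than the larger of their SDs, except Dnmt1 and Dnmt3a (a gap of 1.37) and Tdg and Tet3 (a gap of 2.67, with Tdg uncertain for the reason above). Within the TET genes, Tet1 exceeded Tet3 per kb by 22.4-fold at Day0, by 18.0-fold in Nons on day 4 and by 3.04-fold in Nons on day 7. Tet2 per kb was above Tet3 by 3.36 log2 units at Day0 and below it by day 7 in all 3 groups, with differences of -1.54, -1.82 and -1.67.

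**Figure D2:**
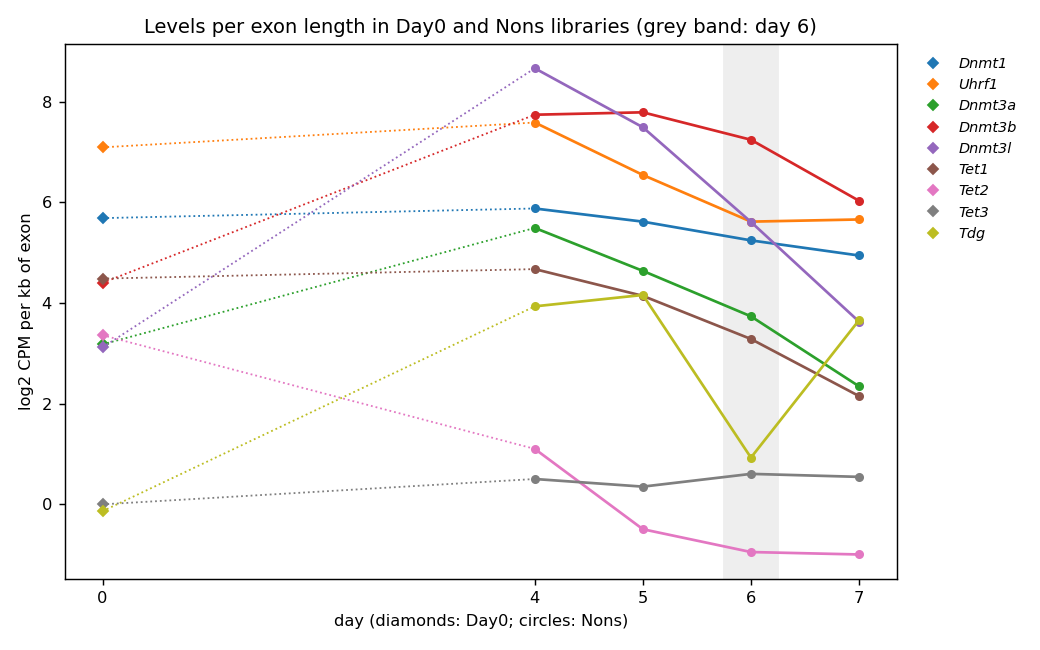
Level of each gene per kb of exon (vertical axis, log2 CPM per kb) in the Day0 library (diamonds) and in the Nons libraries of days 4 to 7 (circles), 1 library per point, with dotted lines joining Day0 to day 4 and the grey band marking day 6. Dnmt3l goes from 3.12 at Day0 to 8.66 on day 4 and 3.63 on day 7, and Tet2 goes from 3.36 to 1.10 and -0.996.

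The Day0 library has no replicate and no matched control, so its differences from Nons are given without a test. Day0 and Nons of day 6 had similar shares of reads in genes (86.0% and 86.5%), whereas day 4 had 92.0%, and neither the labels nor the methods say whether they were processed together. From Day0 to Nons on day 6, Dnmt3b was 7.16-fold higher, Dnmt3l 5.62-fold higher and Dnmt3a 1.47-fold higher, and the changes of Tet2, Uhrf1, Tet1 and Dnmt1 were -4.31, -1.48, -1.20 and -0.44 on the log2 scale. By day 4 the de novo genes stood higher still, with Dnmt3l at 46.6-fold, Dnmt3b at 10.1-fold and Dnmt3a at 4.96-fold of the Day0 level.

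Over days 4 to 7, 6 of the 9 genes fell and none rose past the threshold in the linear fit with group as a covariate. Among all tested genes 25.6% fell and 34.9% rose (limma, Benjamini-Hochberg adjusted p-value under 0.05), so most genes moved over these days. With each library centred on the median of tested genes, 34.4% fell and 27.2% rose. The median change of the 9 was -0.64 log2 units per day, beside 0.04 for all tested genes. The fit counted the libraries of a day as separate observations, though they share any shift of that day. Its SEs and p-values therefore do not measure the spread between repeats of a day. Dnmt3l fell by 1.20 per day (SE 0.13, limma adjusted p = 2.02e-05), Tet2 by 0.96 (SE 0.12, adjusted p = 6.09e-05), Tet1 by 0.83 (SE 0.051, adjusted p = 1.12e-06), Dnmt3a by 0.80 (SE 0.14, adjusted p = 0.000741), Uhrf1 by 0.64 (SE 0.080, adjusted p = 6.16e-05) and Dnmt1 by 0.31 (SE 0.031, adjusted p = 1.28e-05). The values of Dnmt3b (-0.38 per day, adjusted p = 0.0501), Tet3 (0.13, adjusted p = 0.0607) and Tdg (-0.31, adjusted p = 0.443) did not pass. Without day 6 the Dnmt3b value was -0.46 with an adjusted p of 0.0128, and 7 of the 9 then passed. In that fit 27.3% of all tested genes fell and 35.1% rose. Without day 7 the value of Dnmt3a was -0.33 with an adjusted p of 0.0992, and that of Dnmt3b was 0.14, while Tet3 (0.24, adjusted p = 0.0313) and Tdg (-1.37, adjusted p = 0.0144) passed. That Tdg value comes from a series ending on its low day 6 libraries and is left uninterpreted. Without day 6 the Tdg value was -0.026 (limma adjusted p = 0.731).

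Knockdown of Smarcc1 was next compared with Nons within day, both hairpins together. Of the 9 genes, 4 were higher (Dnmt3l, Tet2, Dnmt3a and Tet1) and 1 was lower (Tdg), where 6.88% of all tested genes were called higher and 4.77% lower. Dnmt3l rose by 0.93 log2 units (SE 0.25, limma adjusted p = 0.0345), 1.91-fold. Tet2 rose by 0.82 (SE 0.20, adjusted p = 0.0233), 1.76-fold. Dnmt3a rose by 0.69 (SE 0.18, adjusted p = 0.0344), 1.61-fold, and Tet1 by 0.30 (SE 0.060, adjusted p = 0.0106), 1.23-fold. Tdg fell by 0.30 (SE 0.089, adjusted p = 0.0483), to 81.1% of Nons. Tet3 (0.23, adjusted p = 0.177), Dnmt3b (0.20, adjusted p = 0.388), Dnmt1 (-0.095, adjusted p = 0.291) and Uhrf1 (0.062, adjusted p = 0.595) did not pass. The 95% confidence interval of Dnmt1 ran from -0.22 to 0.026, and that of Uhrf1 from -0.085 to 0.21. The median over the 9 was 0.23, beside -0.013 for all tested genes.

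Both hairpins of a day share 1 Nons library, so the count rests on 4 control libraries. The fit counted both hairpin libraries of a day as separate observations. For genes such as Dnmt3l and Dnmt3a the differences of both hairpins moved together over days. Their SEs and p-values are therefore too small as a measure of the spread between days. Without the libraries of day 6, 0 of the 9 passed and 5 had an unadjusted p-value under 0.05 (2.14% of all tested genes passed, in either direction), and the same count was 0 without Nons of day 6 alone. Tet1 then had an adjusted p of 0.0504 at a change of 0.27, Tet2 of 0.0845 at 0.88, Dnmt3l of 0.189 at 0.79, Dnmt3a of 0.185 at 0.44 and Tdg of 0.110 at -0.35 (without all of day 6). The directions were thus kept while the calls were lost. Without day 4, Dnmt3b was called higher at 0.42 (adjusted p = 0.0457).

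The same-day differences show which days carried these values. Tet1 was higher than Nons in all 8 pairs, by 0.34 ± 0.14 (SD, n = 4) with Smarcc1.6 and 0.26 ± 0.084 with Smarcc1.7, as were 7.89% of tested genes. Dnmt1 and Tdg were lower in all 8, as were 7.1% of tested genes, though the 8 differences of Dnmt1 ranged only from -0.32 to -0.015. Tet2 was higher in 7 of 8, and its gap was widest early, with means over hairpins of 1.33 on day 4, 1.22 on day 5, 0.63 on day 6 and 0.092 on day 7. For Tdg the gap was also widest early, at -0.55 on day 4 and -0.14 on day 7. The de novo genes went the other way. Dnmt3l had mean differences of -0.18, 0.54, 1.35 and 2.02 on days 4, 5, 6 and 7, Dnmt3a of -0.23, 0.80, 1.42 and 0.76, and Dnmt3b of -0.44, 0.19, 0.74 and 0.32. All 3 were below Nons on day 4 and above it on the 3 later days with each hairpin. Uhrf1 and Tet3 were also below Nons on day 4 with each hairpin, at means of -0.15 and -0.15.

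**Figure D3:**
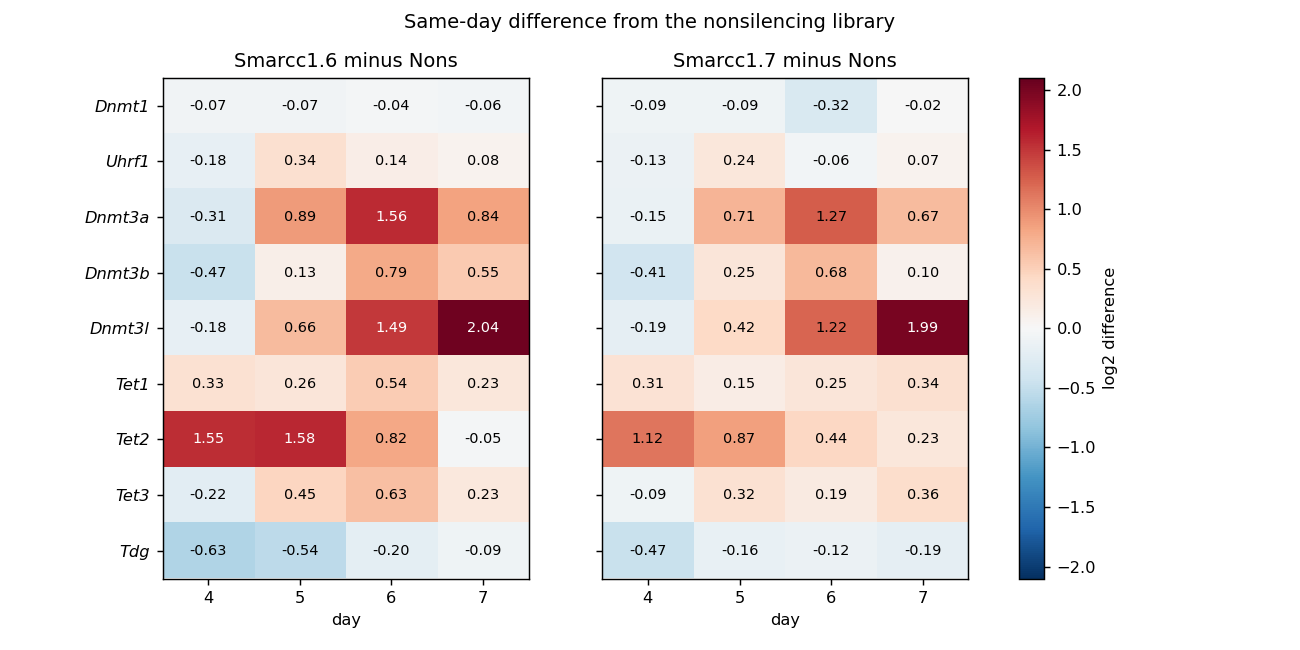
Difference in log2 CPM from the Nons library of the same day (colour and printed value, red higher and blue lower than Nons) for each gene (rows) and day (columns), with Smarcc1.6 on the left and Smarcc1.7 on the right, 1 library against 1 per cell. Dnmt3l goes from -0.18 and -0.19 on day 4 to 2.04 and 1.99 on day 7, whereas Tet2 narrows from 1.55 and 1.12 to -0.048 and 0.23.

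Whether the slope over days differed between knockdown and Nons was tested with an interaction term. No gene of the 13406 passed after adjustment in limma, and 5.56% had an unadjusted p-value under 0.05 (745 genes), among them 1 of the 9. This was Dnmt3l, whose slope was 0.74 log2 units per day higher after knockdown (95% confidence interval 0.42 to 1.06, unadjusted p = 0.000351, adjusted p = 0.363). For Tet2 the difference in slope was -0.43 (interval -0.94 to 0.073), for Dnmt3a 0.36 (-0.28 to 0.99) and for Dnmt3b 0.28 (-0.41 to 0.97). This fit took day as a number, without day as a factor. Its spread thus includes shifts of a day that all groups share, such as that of Tdg on day 6. The SE of Tdg was 0.705 here against 0.089 in the within-day fit. The fit therefore cannot decide whether the opposite trends of the de novo genes and Tet2 exceed the spread of their same-day differences, which was not tested.

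Each hairpin was also compared with Nons in a joint fit of Nons and both hairpins, so that the other hairpin added to the estimate of the spread. With the libraries of Smarcc1.6 and Nons only, 0 of the 9 genes passed, and 0.425% of tested genes did. The values below are from the joint fit. With Smarcc1.6, Tet2 (0.97, SE 0.22, limma adjusted p = 0.0227) and Tet1 (0.34, SE 0.069, adjusted p = 0.0148) were called higher and Tdg (-0.37, SE 0.099, adjusted p = 0.0437) lower, beside 5.59% of tested genes higher and 3.71% lower. Dnmt3l (1.00, adjusted p = 0.0617) and Dnmt3a (0.75, adjusted p = 0.0588) lay just outside the threshold. With Smarcc1.7 none of the 9 passed, where 1.69% of tested genes were higher and 0.768% lower, and 5 had an unadjusted p-value under 0.05. The values were 0.26 for Tet1 (adjusted p = 0.0722), 0.66 for Tet2 (0.125), 0.86 for Dnmt3l (0.141), 0.63 for Dnmt3a (0.144) and -0.24 for Tdg (0.207). Tested directly, Smarcc1.7 minus Smarcc1.6 gave no call for any gene, 3.95% of tested genes had an unadjusted p-value under 0.05 (530 genes), and none of the 9 did. The difference was -0.31 for Tet2 (95% confidence interval -0.80 to 0.18), -0.14 for Dnmt3l (-0.80 to 0.52), -0.12 for Dnmt3a (-0.61 to 0.36) and 0.13 for Tdg (-0.087 to 0.35). These intervals leave room for sizeable differences between the hairpins.

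**Figure D4:**
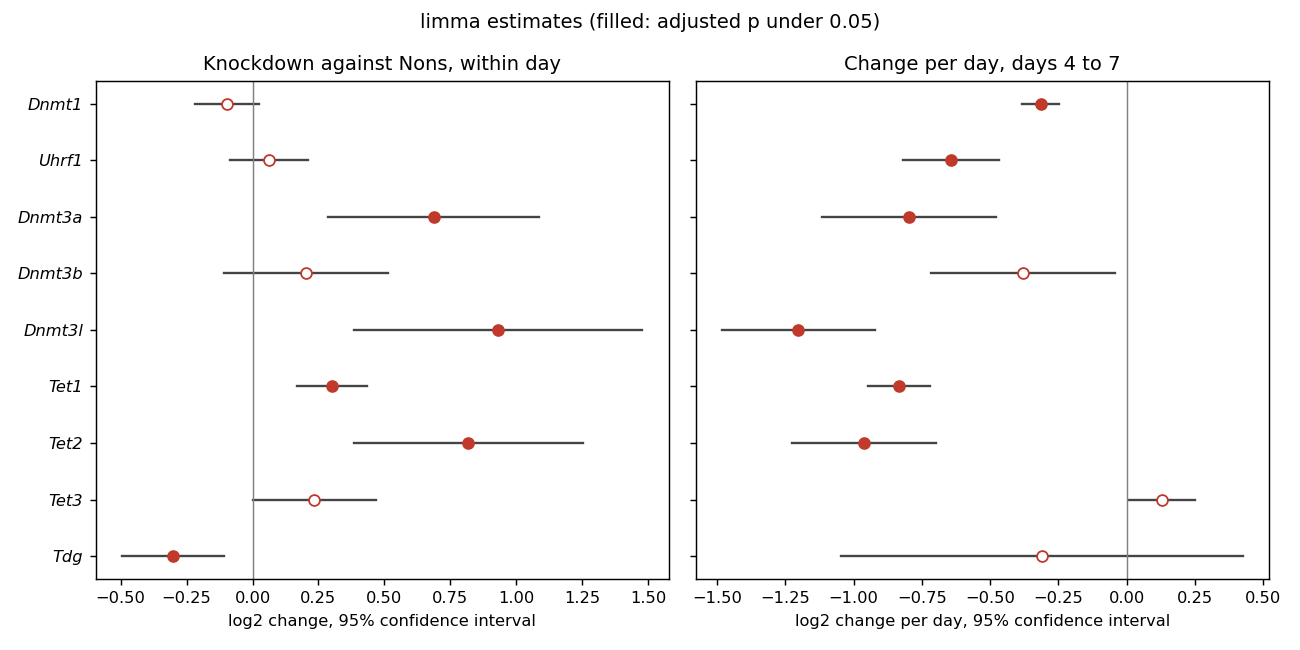
limma estimates for each gene with 95% confidence intervals (horizontal axis, log2 change), for knockdown against Nons within day on the left and for the change per day over days 4 to 7 on the right; filled points have an adjusted p-value under 0.05. The 4 filled genes above 0 on the left (Dnmt3a, Dnmt3l, Tet1 and Tet2) are all among the 6 that fall over days on the right.

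Other genes that act with these enzymes were read from lists of their known roles. The counts below stand beside the shares over all tested genes, 6.88% higher and 4.77% lower after knockdown, and 34.9% rising and 25.6% falling over days. The lists were chosen with earlier results of these data known, so counts above those shares describe the lists and are no test of enrichment. Of 15 partners in maintenance and repressive chromatin, 0 were called after knockdown by limma, and 2 had an unadjusted p-value under 0.05 (among them Zfp57, a zinc finger protein that guards imprints, at 0.76 with an adjusted p of 0.0681). Over days 8 of the 15 fell and 1 rose, with Zfp57 falling by 0.75 and Hells, a remodeller needed for methylation of repeats, by 0.72 per day. Of 14 genes of base excision repair and its helpers, 2 were higher and 0 lower after knockdown. These were Gadd45a (0.73, SE 0.085, adjusted p = 0.00145, higher in 8 of 8 pairs), a stress gene that has been linked to active demethylation, and the ligase Lig3 (0.17, adjusted p = 0.0454). Over days 5 rose and 4 fell, near the shares over all tested genes, with Gadd45b rising by 1.25 and the glycosylase Neil2 by 0.73 per day.

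Of 9 methyl-CpG readers, 2 were lower and 0 higher after knockdown, Mbd2 (-0.39, adjusted p = 0.0405) and Mbd1 (-0.35, adjusted p = 0.0305), each lower in 8 of 8 pairs. Over days 2 rose and 1 fell, among them Zbtb4, which rose by 1.18, and Mbd2, which rose by 0.50 per day. Of 13 genes that supply the methyl donor, Tdh, a threonine dehydrogenase of mESCs, was higher (0.99, adjusted p = 0.0310) and Ahcy, which clears S-adenosylhomocysteine, was lower (-0.23, adjusted p = 0.0270). Ahcy shared the split of Tdg, with 4.84 at Day0 and 5.17, 4.80 and 4.85 on day 6 against 7.78 to 8.55 in the other libraries. So did Hdac1 of the maintenance list, with 5.68 at Day0 and 5.55, 5.67 and 5.60 on day 6 against 7.32 to 7.95 elsewhere. Pcna of that list and Mcm7 of the S-phase list below had smaller splits of this kind. Hdac1, Pcna and Mcm7 were not called over days (limma adjusted p = 0.419, 0.230 and 0.0752). Over days 4 rose and 5 fell, also near those shares, with Tdh falling by 1.65 and Gnmt rising by 1.33 per day. Without day 6 the repair list had 1 gene called and the reader and donor lists 0 (3 in each at an unadjusted p-value under 0.05).

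Of 16 S-phase genes, 0 were called after knockdown by limma (3 at an unadjusted p-value under 0.05, median 0.026), while over days 10 fell and 1 rose, with Ccne1 falling by 0.51 and Mcm6 by 0.44 per day. These 10 of 16 move over days with Dnmt1 and Uhrf1, which are also highest in dividing cells, and their part in that fall was not tested.

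Genes of the naive state that are tied to the enzymes were higher after knockdown in 6 of 7 cases, with a median of 1.00 and 0 lower, where 6.88% of all tested genes were higher. Because the list was chosen with earlier results known, its count against that share is a description and not a test. Prdm14, a repressor of the de novo enzymes and of differentiation in naive cells, rose by 1.62 (SE 0.21, adjusted p = 0.00193), the pluripotency factor Klf4 by 1.40 (SE 0.29, adjusted p = 0.0128) and Zfp42, a marker of naive cells, by 1.11 (SE 0.15, adjusted p = 0.00250), each higher in 8 of 8 pairs. Prdm14 measured 6.47 log2 CPM at Day0, 2.81, 1.99, -0.18 and -1.19 in Nons, 4.67, 3.49, 2.01 and 0.85 with Smarcc1.6, and 4.41, 3.05, 1.45 and -0.14 with Smarcc1.7. Over days 5 of the 7 fell, with Prdm14 falling by 1.41 and Esrrb by 1.32 per day. Without day 6, 4 of the 7 were called higher after knockdown, where 1.62% of all tested genes were. The paper reports that pluripotency factors did not change consistently after knockdown. It also found no evidence that differentiation was delayed.

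Germline genes known to be kept silent by promoter methylation in differentiated cells were higher after knockdown in 11 of 12 cases, with a median of 1.12 and 0 lower, where 6.88% of all tested genes were higher. This list too was chosen with earlier results known, so its count against that share is only a description. Hormad1, a meiotic chromosome axis protein, rose by 2.11 (SE 0.41, adjusted p = 0.00893), Taf7l, a germ cell subunit of TFIID, by 1.78 (SE 0.29, adjusted p = 0.00501) and Slc25a31, an ADP/ATP carrier of germ cells, by 1.39 (SE 0.23, adjusted p = 0.00558). The Taf7l gene lies on the X chromosome. The paper reports that silencing of an X chromosome fails after Smarcc1 knockdown in these cells, and its part in the Taf7l value was not tested. Tex101 had 0.79 with an adjusted p of 0.0951. Over days 10 of the 12 fell and 1 rose, the fastest being Dazl at 2.62 and Hormad1 at 2.33 per day. Dazl measured 9.68 log2 CPM at Day0, 8.03, 4.68, 2.19 and -0.72 in Nons, 8.67, 6.41, 3.94 and 1.52 with Smarcc1.6, and 8.56, 6.02, 3.20 and 0.83 with Smarcc1.7. It was thus on in undifferentiated cells, was lower on each later day in all 3 groups, and was above Nons on each day after knockdown. Each of the 12 was higher in 8 of 8 pairs, as were 7.89% of tested genes, and their summed CPM differed from Nons by a mean of 1.10 log2 units. Without day 6, 6 of the 12 were called higher (median 1.00) where 1.62% of all tested genes were, and the promoter windows of the list held a median of 24.0 CpG sites.

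**Figure D5:**
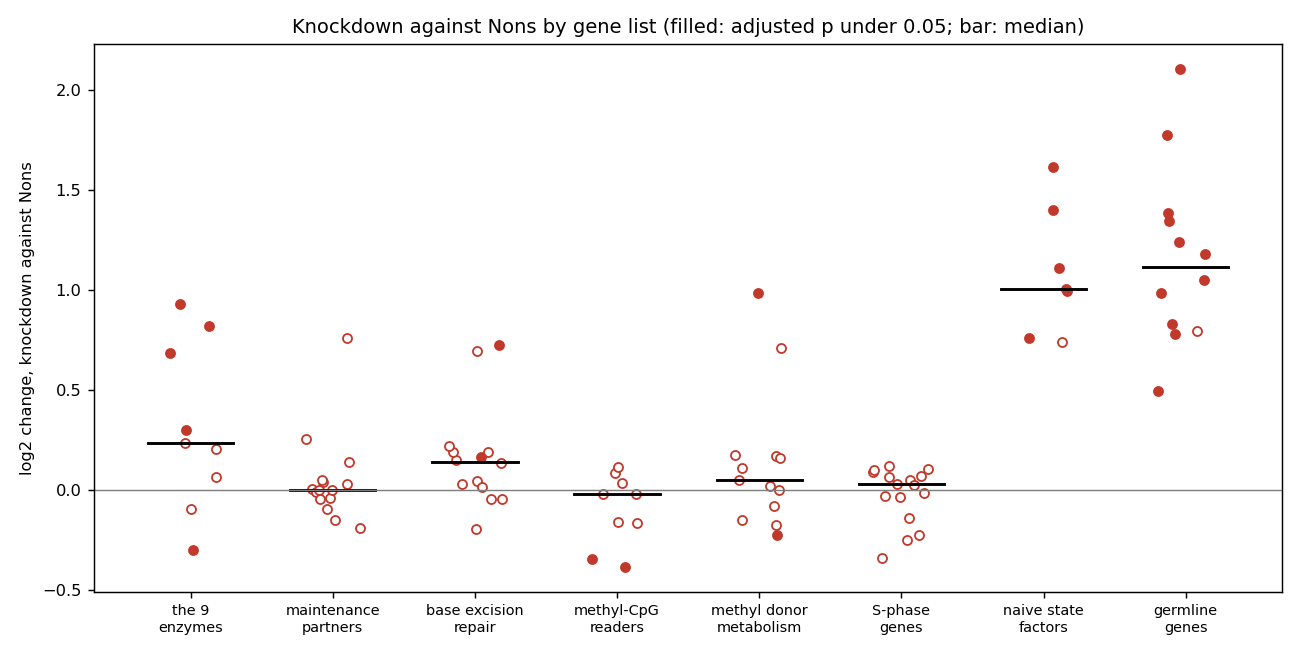
log2 change of knockdown against Nons for each gene (vertical axis), grouped by list (horizontal axis), with filled points for an adjusted p-value under 0.05 and black bars for list medians; points are spread sideways for visibility. The naive state factors (median 1.00) and the germline genes (median 1.12) lie above 0 throughout, while the maintenance partners (median -0.0024) and S-phase genes (median 0.026) centre on 0. The lists were chosen with earlier results of these data known.

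Markers of the cell types that an undirected differentiation can hold were read beside these values. Of 6 pluripotency markers 4 were higher after knockdown, but Klf4, Esrrb, Zfp42 and Nanog are also in the naive state list, so that 3 of these 4 calls are the same calls and Sox2 (0.69, adjusted p = 0.00888) is the other. The summed level of the 6 was 1083 to 1730 CPM in Nons, 1346 to 2520 with Smarcc1.6 and 1084 to 2093 with Smarcc1.7 over days 4 to 7, against 4279 at Day0. Pou5f1 was the highest of the 6 on those days, at 9.64 to 10.54 log2 CPM in Nons. Its change after knockdown was 0.075 (limma adjusted p = 0.604). Of 4 tested neural markers 2 were higher (Sox1, 2.07, and Tubb3, 0.72), while Nes had -0.41 (adjusted p = 0.154, lower in 6 of 8 pairs). The summed neural level was 68.0 to 331 CPM in Nons, 78.7 to 398 with Smarcc1.6 and 78.1 to 286 with Smarcc1.7, and it was above same-day Nons on days 4 and 7 and below it on days 5 and 6 with both hairpins. Of 5 tested mesoderm and fibroblast markers 1 was higher (Col1a2, 2.82), while Acta2 had -0.92 (adjusted p = 0.142) and Tagln -1.002 (adjusted p = 0.0974), each lower in 6 of 8 pairs. Their sums of 13.96 to 1014 CPM in Nons, 35.3 to 1321 with Smarcc1.6 and 26.6 to 1261 with Smarcc1.7 differed from same-day Nons by 1.34 and 0.93 log2 units on day 4 and by -1.39 and -0.81 on day 6 with the 2 hairpins. Of 5 tested extra-embryonic endoderm markers 1 was lower (Sox17, -0.88), while Sparc had 0.23 (adjusted p = 0.0667, higher in 7 of 8 pairs). The summed endoderm level was higher than in same-day Nons in 7 of 8 pairs by a mean of 0.18 log2 units, with ranges of 178 to 475, 195 to 609 and 188 to 630 CPM in the same order. Sparc made up most of this sum, at 7.28 to 8.66 log2 CPM in Nons against 3.13 to 5.63 for Dab2, the next highest. Of the other tested endoderm markers, Sox17, Dab2 and Gata4 were lower in 7, 6 and 5 of 8 pairs, and Gata6 was higher in 5. Of 4 tested trophoblast markers 1 was lower (Krt8, -0.50), and the summed level was higher than Nons in 2 of 8 pairs, both on day 4, with ranges of 46.8 to 3520, 85.7 to 3196 and 61.4 to 2725 CPM. No marker in the table had 0 reads in all libraries. Several markers rose steeply over days, such as Acta2 by 3.79, Tagln by 3.40 and Krt8 by 2.57 log2 units per day, and the part of cell composition in the changes of the 9 genes was not tested.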

How the data were processed

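RNA-seq of 13 libraries was analysed from 1 table of 25965 genes. The authors prepared TruSeq libraries, ran them paired-end on a NextSeq500, used trim_galore for trimming, aligned the reads with tophat or hisat2 to mm10 with FVB/NJ and CAST/EiJ variants masked (the submitters' processing notes name bcl2fastq and TopHat2 2.0.12), and quantified genes in Seqmonk. The deposited values are log2 CPM, both alleles together. Strand setting and annotation release are not given in the sources used here. In every library 100% of low values were whole reads (within 0.01 of a read), and 0 reads were written as 0.9. Depth was 13993440 to 63548079 reads, so 3 reads sit at a log2 CPM between -2.22 and -4.40, a floor that covers counting error only.

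Groups and days came from sample titles. Genes whose log2 CPM averaged 0 or more in the 12 libraries after Day0 were fitted with limma 3.58.1 in R 4.3.3 (lmFit, eBayes with trend, two-sided, Benjamini-Hochberg over 13406 genes, threshold 0.05). Knockdown and each hairpin were fitted with day as a factor, change per day with group as a factor, and the interaction as knockdown times day as a number. No pseudocount was added. The knockdown and change per day fits were also run on simulated independent counts. Those counts held no shift shared by a day and no link between hairpins, so that run cannot judge the spread of these libraries. Exon lengths and transcripts came from GENCODE M21 (all 9 genes matched by symbol, strand and position), near-identical copies from blastn 2.17.0 (at least 90% identity over 150 bases) and promoters from RefSeq. The members and lists were chosen with earlier results of these data known. Named genes were the 9 members, Smarcc1, from each list at most 3 genes with the largest change among those called for knockdown and at most 2 for day, and the tested gene most correlated with each member. Genes named beyond this rule (Tex101, Hdac1, Pcna and Mcm7, Zfp57 for knockdown, and further cell type markers) were chosen after their values were seen. The 25 alternatives tried covered filters, eBayes trend, pseudocount, scaling, day block, left-out libraries and days, and single hairpins. The neural marker Map2 was not analysed here. Python 3.11.15, numpy 2.4.6, pandas 2.3.3 and matplotlib 3.10.9 were used.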

Additional observations from a re-analysis of the deposited data

Results flagged for a closer look

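A group here is the 4 libraries of a hairpin over days 4 to 7, and a library was marked where its gap to the nearest other exceeded Dixon's 95% critical value as a share of the group's range. For independent draws from a single distribution about 1 in 20 groups is marked, which is 1.5 of the 30 groups examined. The 4 days follow a course and the groups share days, so that figure does not measure chance here. Of the 30 groups 8 were marked, 6 of them on day 6. On day 6 the level of Tdg was 3.35 in Nons, 3.15 with Smarcc1.6 and 3.24 with Smarcc1.7 (log2 CPM), and the share of reads counted in genes was 86.5%, 85.6% and 85.3% in the same order. The level of Dnmt3a on day 7 was marked with Smarcc1.6 (7.24) and with Smarcc1.7 (7.07), each below the other 3 days of its hairpin.

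For 5 genes both hairpins lay below Nons on day 4 and above it on day 7. The mean differences over hairpins were -0.23 and 0.76 for Dnmt3a, -0.44 and 0.32 for Dnmt3b, -0.18 and 2.02 for Dnmt3l, -0.15 and 0.070 for Uhrf1, and -0.15 and 0.30 for Tet3 on days 4 and 7. With 1 library per group and day, the difference between those days was not tested, and the linear interaction gave no adjusted call.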

How the results depend on the processing

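The number of the 9 genes called for knockdown was 5 in the reported fit, 2 without a trend in eBayes, 0 without day as a replicate block, 0 with Smarcc1.6 and Nons only and 0 with Smarcc1.7 and Nons only, and between 0 and 5 on leaving out single days or libraries. It was 0 without Nons of day 6, 1 without Nons of day 5 and 2 without Smarcc1.6 of day 5 or 6 or Smarcc1.7 of day 6, and 3 without any 1 library of day 7. Of all tested genes 4.65% were called without Nons of day 6 and 4.56% without Nons of day 5. For Smarcc1.6 the 3 calls became 5 with no filter on low values, 1 without the trend, 0 without the replicate block and 0 with Smarcc1.6 and Nons only, and ran from 0 to 6 with libraries left out (6 without Nons of day 4, 1 without Nons of day 5 or 6, 0 without Smarcc1.6 of day 5 or 6). Of all tested genes 5.83% were called for Smarcc1.6 with no filter, 6.45% without the trend and 12.6% without Nons of day 4. Without Nons of day 5 and of day 6 the shares were 3.98% and 5.04%. For Smarcc1.7 the count of 0 ran to 2 (2 without Nons of day 4, 1 without Nons of day 7), where 7.85% and 3.62% of all tested genes were called. The counts for the change per day (6 to 8), the interaction (0) and the hairpin difference (0) stayed within 1.5 times under all alternatives run. The block was day in the fits of knockdown and of each hairpin, since the sample numbers are days. For the change per day the block left out was group. The interaction fit had no day factor, and no fit of it without a block was made.

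Over all tested genes, calls for knockdown numbered 922 higher and 639 lower as reported, 4 without the block, 57 and 0 with 1 hairpin, and 287 without day 6. Of 1305 values of single genes under the alternatives, 1173 kept their side of the threshold, 100 lost a call, 32 gained one and 0 called values changed direction, while 39 uncalled values changed sign. Tdg lost its call under 21 of 25 alternatives, Dnmt3a and Dnmt3l under 15 each, Tet2 under 9 and Tet1 under 5. The 9 genes had at least 109 reads in each library, and each group had 1 library per day. The cause of the lost calls was not tested.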

Other observations

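For each of the 9 genes the tested gene with the closest course over the 12 libraries of days 4 to 7 was read from Pearson's r of log2 CPM, as a description only, since the points share days and libraries and most genes move over days. It was Tonsl for Dnmt1 (r = 0.994), Zfand2a for Uhrf1 (0.987), Zbtb8a for Dnmt3a (0.987), Atp5a1 for Dnmt3b (0.979), Gpat2 for Dnmt3l (0.995), Nqo2 for Tet1 (0.992), Ncoa3 for Tet2 (0.987), Zbtb8b for Tet3 (0.897) and Gm5518 for Tdg (0.994). The number of tested genes with r above 0.9 ran from 0 for Tet3 to 1176 for Tet1. Among the 9 themselves, Dnmt3l and Tet1 were closest (0.950), followed by Dnmt1 and Uhrf1 (0.944), and the highest r of Tet3 with another member was 0.0739. The r values of Tdg include its low day 6 libraries.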
